A study of Chlorocebus aethiops with 12 samples.

Results

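Transcripts of 10 Krüppel-like factor (KLF) genes were followed in COS-1 cells given dexamethasone (Dex), with and without the protein MDFIC. The genes are KLF2 (NM_016270), KLF3 (NM_016531), KLF4 (NM_004235), KLF5 (NM_001730), KLF6 (NM_001300), KLF9 (NM_001206), KLF10 (NM_005655), KLF11 (NM_003597), KLF13 (NM_015995) and KLF15 (NM_014079). They were chosen by these human RefSeq accessions, not by their values, and are 10 of the 32379 accessions on the array. All 10 had at least 1 probe, 19 probes in all, and all 10 were among the 23757 accessions tested. KLF proteins are transcription factors that bind GC-rich and CACCC sequences through zinc fingers at their C-terminal end. Some members mainly activate transcription with histone acetyltransferases, and others repress it by recruiting SIN3A or CtBP. Several KLF genes are immediate targets of hormones, serum or TGF-beta, and KLF9 and KLF15 are textbook targets of the glucocorticoid receptor (GR), the nuclear receptor that Dex activates.

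COS-1 is a fibroblast-like kidney line of the African green monkey that carries SV40 T antigen. Cells were transiently transfected with GR, without or with MDFIC (MyoD family inhibitor domain containing), and treated 48 h later with vehicle or 100 nM Dex for 6 h. The 4 groups were thus GR with vehicle, GR with Dex, GR+MDFIC with vehicle and GR+MDFIC with Dex, each with 3 biological replicates, and all 4 were transfected with GR. The GR+MDFIC cells are also called co-transfected cells here. The labels do not give the species of the constructs or the share of cells transfected. Each array value is a mean over all cells, in which fewer expressing cells and less RNA per cell cannot be told apart. RNA was labelled with Cy3 and hybridised to single-colour Agilent arrays of human probes, so that each accession names the human transcript and the signal depends on how well the monkey transcript matches the probe. The files give no sequences and no gene symbols.

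The 12 arrays lay on 3 slides. Slide 1 held the GR vehicle arrays and GR Dex replicate 1, slide 2 GR Dex replicates 2 and 3 with GR+MDFIC vehicle replicates 1 and 2, and slide 3 GR+MDFIC vehicle replicate 3 with the 3 GR+MDFIC Dex arrays. Slide 3 was dimmer, with a mean 75th percentile signal of 386, against 850 and 868 on the others. The share of spots well above background ran from 70.3% to 75.2% over the arrays. Values are given as the log2 signal minus the log2 of that array's 75th percentile, and the value within 1 slide is given beside each called KLF change. NM_199072, assigned to MDFIC by hand, was 481-fold higher in GR+MDFIC than in GR cells with vehicle (log2 fold 8.91 ± 0.12, SE; limma, Benjamini-Hochberg adjusted p = 3.61e-10), and its log2 fold was 8.60 with slide as a block. The accession assigned by hand to GR had no probe under its name, so the level of the transfected GR was not checked here. Of the marker accessions assigned by hand, 2 of 3 mesenchymal, 4 of 4 epithelial and 1 of 1 kidney lineage accessions with a probe were well above background on all 12 arrays. So was 1 of 2 leukocyte accessions and 0 of 2 endothelial ones. The kidney lineage accession was called lower with Dex in both kinds of cell (log2 folds -0.30 and -0.28, and -0.32 and -0.31 with slide as a block), and its part in the KLF results was not tested.

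With Dex, KLF9 was called higher and KLF2, KLF5, KLF10 and KLF11 lower, both with and without MDFIC. Only the calls of KLF9 and KLF11 were kept in both kinds of cell under every alternative run. KLF2 and KLF5 were called by 1 of their 2 probes, and the call of KLF10 in GR cells depended on single arrays. KLF9 was 1.90-fold higher in GR cells and 1.85-fold higher with MDFIC co-expressed. The falls lay between 1.28-fold and 1.40-fold in GR cells and between 1.23-fold and 1.49-fold in GR+MDFIC cells. KLF3, KLF4, KLF6, KLF13 and KLF15 passed the test in neither. A gene was called where limma's Benjamini-Hochberg adjusted p over all 23757 accessions was under 0.05.

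In GR cells 5 of 10 KLF genes were called, against 7.17% of all accessions tested. The single rise stands beside 4.4% of accessions called higher, and the 4 falls beside 2.77% called lower. In GR+MDFIC cells 5 of 10 were called, against 13.5% of all accessions. There 1 rose, where 6.6% of accessions were called higher, and 4 fell, where 6.94% were called lower. The Dex and vehicle arrays did not overlap for 7 of 10 genes in GR cells, against 26.2% of accessions, and for 7 of 10 in GR+MDFIC cells, against 32.2%. The median log2 fold of the 10 genes was -0.11 without MDFIC and -0.13 with it, and that of all accessions 0.0074 and -0.007. The median size of the log2 fold, regardless of sign, was 0.28 and 0.31 for the 10 genes and 0.11 and 0.15 for all accessions. The earlier results of these data were known when the genes were chosen, so these counts describe the 10 genes and are no test of the family.

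**Figure D1:**
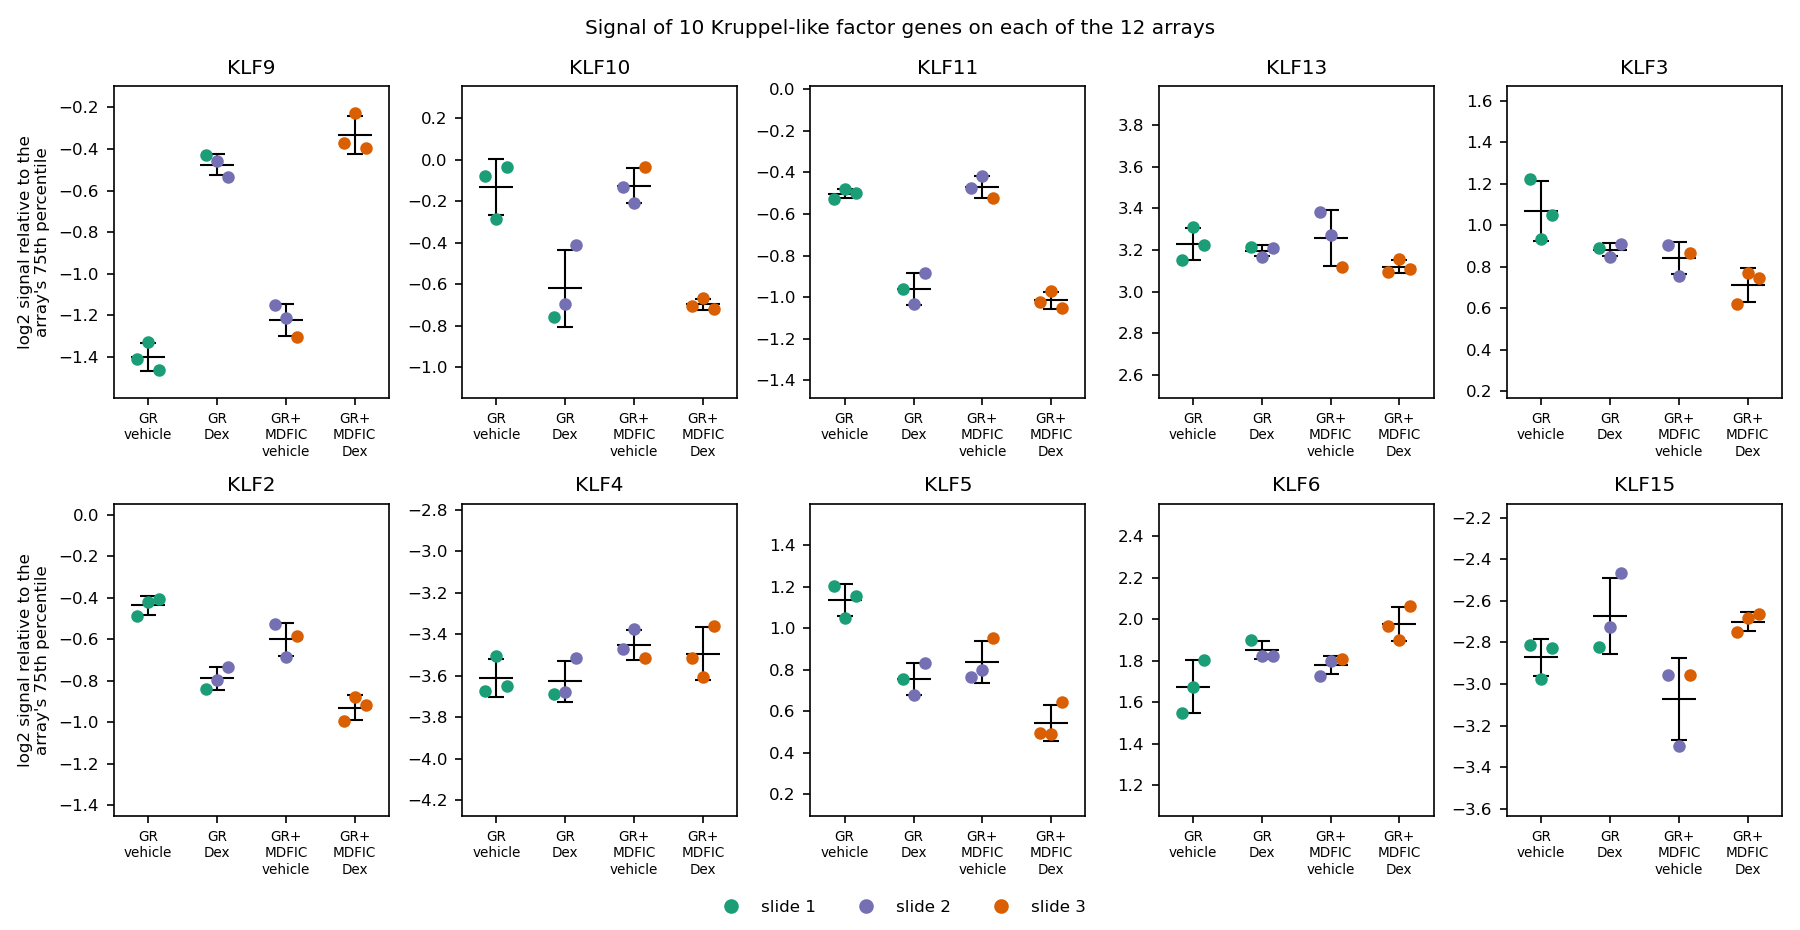
Signal of each KLF gene on the 12 arrays, as the log2 difference from that array's 75th percentile, by group; points are arrays coloured by slide, horizontal bars are group means and error bars are SD (n = 3), and every panel spans the same range on its own axis. KLF9 is higher on all 6 Dex arrays than on all 6 vehicle arrays, and KLF2, KLF10 and KLF11 are lower on all 6 Dex arrays than on all 6 vehicle arrays.

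KLF9, KLF10, KLF11 and KLF13 are the members here that repress through SIN3A. KLF9, also called BTEB1, is a ubiquitous factor that acts with nuclear hormone receptors and is induced by glucocorticoids in many tissues. Its log2 signal was -1.41, -1.33 and -1.47 on the GR vehicle arrays and -0.43, -0.46 and -0.53 on the GR Dex arrays. With MDFIC it was -1.15, -1.21 and -1.30 with vehicle and -0.37, -0.23 and -0.40 with Dex. The lowest Dex array thus lay above the highest vehicle array of either kind of cell. The log2 fold with Dex was 0.93 ± 0.06 (SE) in GR cells (limma, Benjamini-Hochberg adjusted p = 2.23e-05) and 0.89 ± 0.06 in GR+MDFIC cells (limma, Benjamini-Hochberg adjusted p = 2.12e-05). Within slide 1 it was 0.97, and within slide 3 it was also 0.97. A rise of this size or more was seen for 1.54% of accessions without MDFIC and 5.14% with it. KLF9 had 1 probe, which was well above background on every array.

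KLF10 and KLF11 are the TGF-beta-inducible early genes TIEG1 and TIEG2, repressors that restrain proliferation. KLF11 read -0.53, -0.48 and -0.50 on the GR vehicle arrays and -0.96, -1.04 and -0.88 on the GR Dex arrays, on the log2 scale. Co-transfected cells gave -0.47, -0.42 and -0.52 with vehicle and -1.02, -0.97 and -1.05 with Dex. Every Dex array lay below every vehicle array. KLF11 fell by 0.46 ± 0.05 (SE) on the log2 scale in GR cells (limma, Benjamini-Hochberg adjusted p = 0.000465) and by 0.54 ± 0.05 in GR+MDFIC cells (limma, Benjamini-Hochberg adjusted p = 0.000113). The values within slides 1 and 3 were -0.46 and -0.49. Its other probe also passed in both comparisons, with log2 folds of -0.64 and -0.44, which makes KLF11 the only gene of the 10 with 2 probes called the same way.

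KLF10 read -0.08, -0.28 and -0.03 on the GR vehicle arrays and -0.76, -0.69 and -0.41 on the GR Dex arrays. The co-transfected arrays read -0.13, -0.21 and -0.04 with vehicle and -0.70, -0.67 and -0.72 with Dex. The groups did not overlap, but GR Dex replicate 3 stood closer to the vehicle arrays than the other Dex arrays did. KLF10 fell by 0.49 ± 0.10 (SE) on the log2 scale in GR cells (limma, Benjamini-Hochberg adjusted p = 0.0148) and by 0.57 ± 0.10 in GR+MDFIC cells (limma, Benjamini-Hochberg adjusted p = 0.00464). Within slides 1 and 3 its values were -0.62 and -0.66. The call without MDFIC depended on single arrays: leaving out vehicle replicate 1, vehicle replicate 3, Dex replicate 1 or Dex replicate 2 of those cells gave adjusted p-values from 0.0595 to 0.0638 (limma, Benjamini-Hochberg), and a fit of those 2 groups alone gave 0.0915. It has a single probe.

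KLF13, a factor first described as a regulator of the chemokine RANTES in T cells, had log2 signals from 3.15 to 3.31 on the GR vehicle arrays and from 3.17 to 3.22 on the GR Dex arrays. Co-transfected cells ran from 3.12 to 3.38 with vehicle and from 3.1 to 3.16 with Dex. The groups overlapped in both kinds of cell. The log2 fold was -0.03 ± 0.07 (SE; limma, Benjamini-Hochberg adjusted p = 0.884) in GR cells, with a 95% interval from -0.18 to 0.12. Co-transfection gave -0.14 ± 0.07 (limma, Benjamini-Hochberg adjusted p = 0.19), and 0.0008 within slide 3. If GR+MDFIC vehicle replicate 3, which shares the slide of the Dex arrays, was left out, KLF13 was called lower at -0.21 (limma, Benjamini-Hochberg adjusted p = 0.0311). Its other probe gave -0.01 and 0.08.

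KLF3 is the member here that represses through CtBP, and it is known from adipocytes and red blood cells. Its log2 signal was 1.22, 0.94 and 1.05 with vehicle and 0.89, 0.85 and 0.91 with Dex in GR cells. With MDFIC it was 0.91, 0.76 and 0.86 with vehicle and 0.62, 0.77 and 0.74 with Dex. The Dex arrays of GR cells all lay below the vehicle arrays, by little, and those of GR+MDFIC cells overlapped them. The log2 folds of -0.19 ± 0.08 and -0.13 ± 0.08 (SE) did not pass (limma, Benjamini-Hochberg adjusted p = 0.212 and 0.265). A second, dimmer probe gave -0.07 and -0.33, and with the mean of both probes KLF3 was called lower in GR+MDFIC cells at -0.23 (limma, Benjamini-Hochberg adjusted p = 0.018).

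KLF2, KLF4, KLF5 and KLF6 are closely related members that can act as activators. KLF2 is known from endothelium, where it responds to flow, and from resting T cells. Its brighter probe read -0.49, -0.42 and -0.40 on the GR vehicle arrays and -0.84, -0.79 and -0.73 on the GR Dex arrays, on the log2 scale. The values with MDFIC were -0.53, -0.69 and -0.58 with vehicle and -0.99, -0.88 and -0.92 with Dex. Every Dex array lay below every vehicle array. KLF2 fell by 0.35 ± 0.06 (SE) on the log2 scale in GR cells (limma, Benjamini-Hochberg adjusted p = 0.0042) and by 0.33 ± 0.06 in GR+MDFIC cells (limma, Benjamini-Hochberg adjusted p = 0.00436). Within slides 1 and 3 the values were -0.40 and -0.34. The dimmer probe, well above background on all 12 arrays, showed no such fall. It gave 0.11 ± 0.11 (SE) without MDFIC and -0.08 ± 0.11 with it, and the mean of both probes was -0.12 (limma, Benjamini-Hochberg adjusted p = 0.266) and -0.21 (0.0341). With MDFIC the mean passed, but the dimmer probe by itself was not called (limma over all probes, Benjamini-Hochberg adjusted p = 0.66). In both kinds of cell the fall of KLF2 therefore rests on 1 of its 2 probes. With MDFIC it was -0.17 after normexp background correction with quantile scaling.

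KLF5 promotes proliferation in epithelia and smooth muscle. It read 1.20, 1.05 and 1.16 with vehicle and 0.75, 0.68 and 0.83 with Dex in GR cells, on the log2 scale. Co-transfected cells read 0.76, 0.80 and 0.95 with vehicle and 0.50, 0.49 and 0.64 with Dex. Dex arrays lay below vehicle arrays within each kind of cell, while the vehicle arrays of GR+MDFIC cells lay in the range of the Dex arrays of GR cells or just above it. KLF5 fell by 0.38 ± 0.07 (SE) on the log2 scale in GR cells (limma, Benjamini-Hochberg adjusted p = 0.0107) and by 0.29 ± 0.07 in GR+MDFIC cells (limma, Benjamini-Hochberg adjusted p = 0.0253), with -0.38 and -0.41 within slides 1 and 3. The call in GR+MDFIC cells was lost without vehicle replicate 2 or Dex replicate 1 or 2 of those cells (limma, Benjamini-Hochberg adjusted p from 0.0552 to 0.0856), and after normexp with quantile scaling, at -0.19 (0.139). Its other probe gave -0.20 and -0.19 and was not called in either (limma over all probes, Benjamini-Hochberg adjusted p = 0.196 and 0.135).

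**Figure D2:**
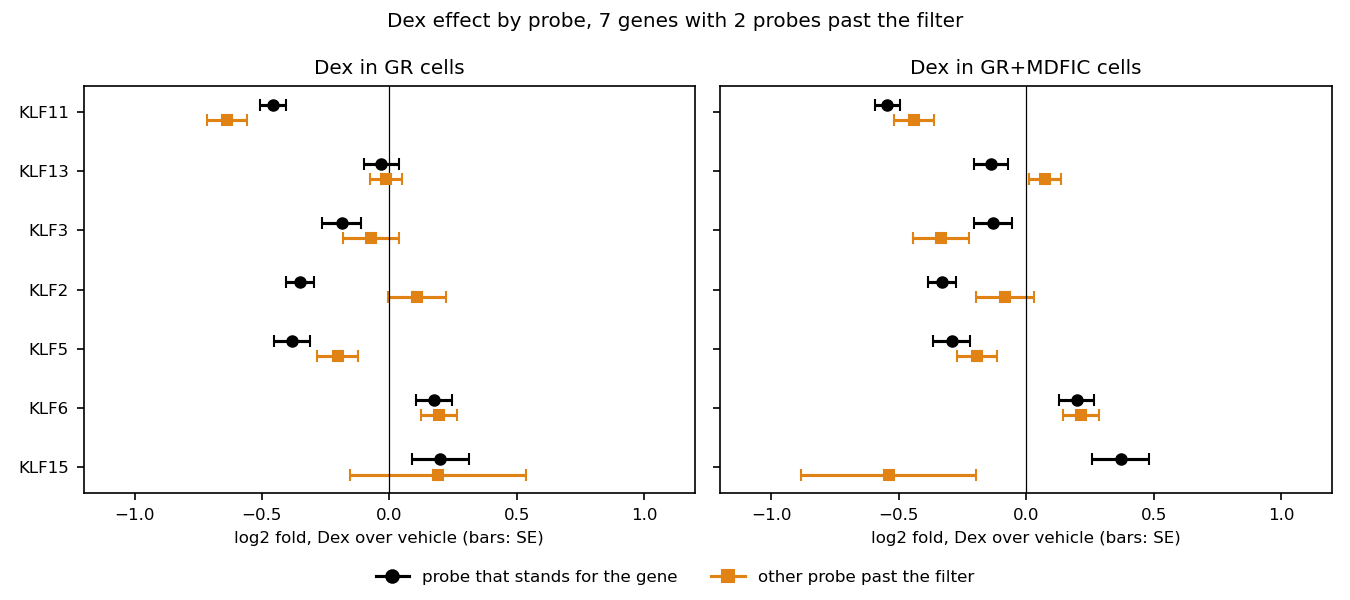
Log2 fold of Dex over vehicle for each probe of the 7 KLF genes with 2 probes past the filter, in GR cells (left) and GR+MDFIC cells (right); circles mark the brighter probe that stands for the gene, squares the other probe, and bars are SE. Both KLF11 probes lie at -0.44 or lower, whereas the KLF2 probes lie at -0.35 and 0.11 in GR cells.

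KLF4, a factor of epithelial barriers and of pluripotency, read from -3.67 to -3.51 with vehicle and from -3.69 to -3.51 with Dex in GR cells, on the log2 scale. With MDFIC the range was from -3.51 to -3.37 with vehicle and from -3.61 to -3.36 with Dex. The groups overlapped throughout. Its log2 folds were -0.02 ± 0.08 and -0.04 ± 0.08 (SE; limma, Benjamini-Hochberg adjusted p = 0.962 and 0.751). The 95% intervals, from -0.20 to 0.16 and from -0.22 to 0.14, hold neither the rise of KLF9 nor the falls of KLF10 and KLF11. They hold for the signal of its only probe, which was weak, from 31 to 82.65 units, though well above background on all 12 arrays. Whether so dim a probe would show a change of the transcript in full was not tested.

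KLF6, a widely expressed factor studied as a tumour suppressor, read 1.55, 1.68 and 1.80 with vehicle and 1.90, 1.82 and 1.82 with Dex in GR cells. Co-transfected cells gave 1.73, 1.80 and 1.81 with vehicle and 1.97, 1.90 and 2.06 with Dex. Dex arrays lay above vehicle arrays in both, by a narrow margin in GR cells. The log2 folds of 0.18 ± 0.07 and 0.20 ± 0.07 (SE) did not pass (limma, Benjamini-Hochberg adjusted p = 0.196 and 0.0885), and the values within slides 1 and 3 were 0.23 and 0.17. Its second bright probe gave 0.19 and 0.21 and did not pass either. Of the other 2 KLF6 probes, 1 was well above background on no array and 1 on a single array, and neither was tested.

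KLF15, a glucocorticoid-induced regulator of amino acid and lipid metabolism in muscle and liver, gave a weak signal here, from 49.7 to 171 units, well above background on all 12 arrays. It read -2.81, -2.97 and -2.83 with vehicle and -2.82, -2.73 and -2.47 with Dex in GR cells, on the log2 scale. With MDFIC the arrays read -2.96, -3.30 and -2.96 with vehicle and -2.75, -2.68 and -2.66 with Dex. The groups overlapped in GR cells and did not in GR+MDFIC cells. The log2 fold was 0.20 ± 0.11 (SE; limma, Benjamini-Hochberg adjusted p = 0.397) in GR cells, and 0.05 within slide 1. Co-transfected cells gave 0.37 ± 0.11 (limma, Benjamini-Hochberg adjusted p = 0.0576), and 0.26 within slide 3. It was called higher there without GR+MDFIC vehicle replicate 3 (limma, Benjamini-Hochberg adjusted p = 0.0342) or GR Dex replicate 3 (0.0378), with the replicate number as a block (0.0438), with an intensity trend and robust variance (0.0484), and among accessions well above background on all arrays (0.0446). A dimmer probe, well above background on 10 of the 12 arrays, gave 0.19 ± 0.34 and -0.54 ± 0.34 (SE). The arrays where it was not were GR+MDFIC Dex replicates 1 and 2, at 6.02 and 3.48 units, so that -0.54 rests on values near the floor.

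**Figure D3:**
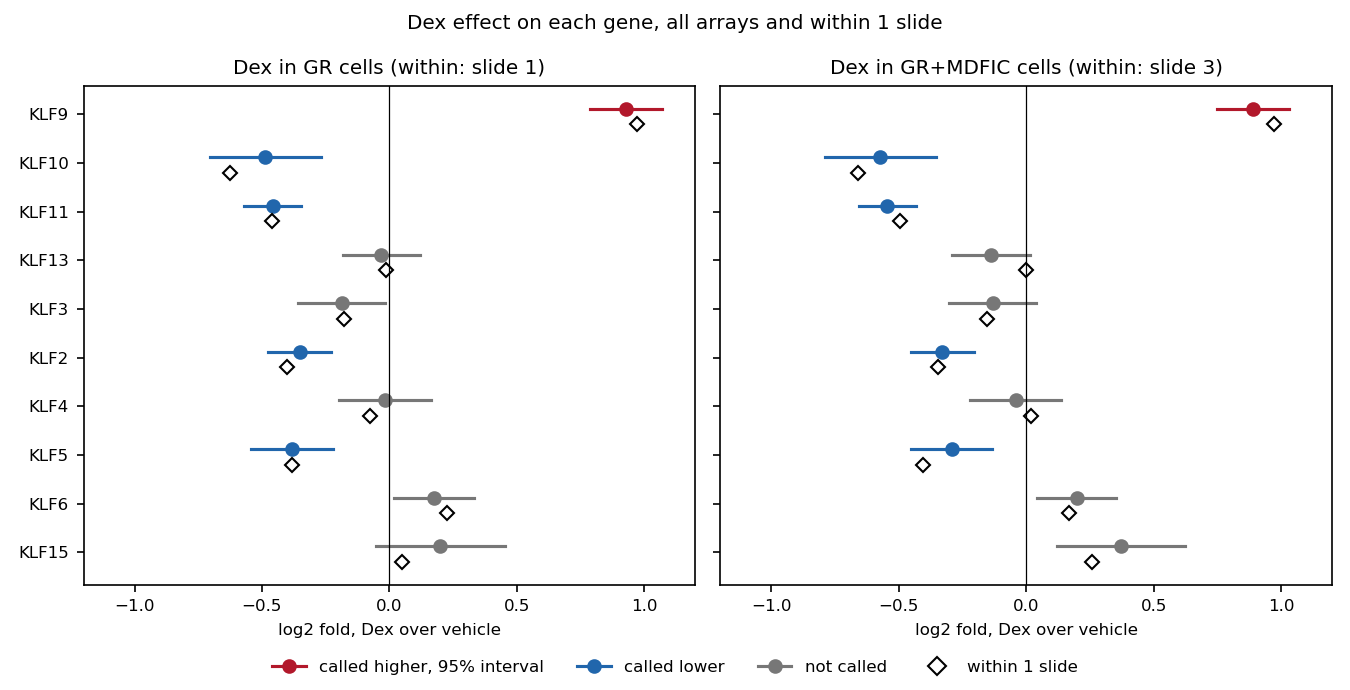
Log2 fold of Dex over vehicle for each KLF gene in GR cells (left) and GR+MDFIC cells (right); circles with 95% intervals are from the fit on all 12 arrays, red for called higher, blue for called lower and grey for not called, and open diamonds are the values within slide 1 (left) or slide 3 (right). KLF9 lies at 0.93 and 0.89. The within-slide values of the 5 called genes have the same sign as the pooled ones, which groups that do not overlap must give.

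With slide as a fixed block, the Dex effect in GR cells is the value within slide 1, which holds 1 Dex array, and that in GR+MDFIC cells the value within slide 3, which holds 1 vehicle array. KLF9, KLF10 and KLF11 were called in both under this block. KLF2 was called without MDFIC only (limma, Benjamini-Hochberg adjusted p = 0.0442, against 0.0766 with MDFIC), and KLF5 in neither (0.0855 and 0.0738). That made 4 of 10 genes in GR cells, against 3.56% of accessions, and 3 of 10 in GR+MDFIC cells, against 3.41%. All 5 genes kept their direction within slides. That was fixed in advance, because their Dex and vehicle arrays did not overlap in either kind of cell, and it is no separate support.

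**Figure D4:**
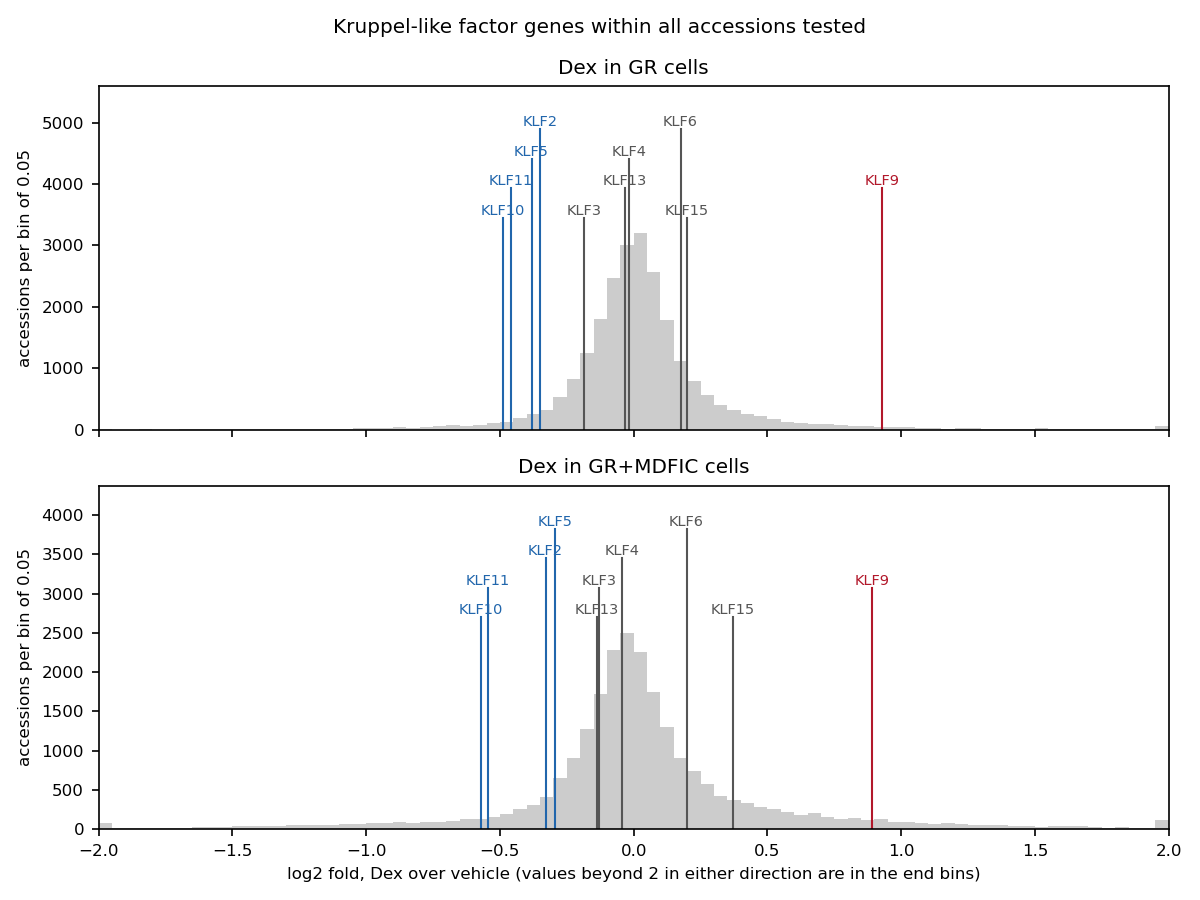
Number of accessions by log2 fold of Dex over vehicle (bins of 0.05, grey bars) in GR cells (top) and GR+MDFIC cells (bottom), with the 10 KLF genes as vertical lines, red for called higher, blue for called lower and dark grey for not called; line heights carry no value. KLF9 lies far to the right of the bulk of accessions, and KLF10 and KLF11 lie to the left, with 2.73% and 3.04% of accessions at or below them in GR cells and 6.39% and 6.73% in GR+MDFIC cells.

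Whether MDFIC changed the Dex response of these genes was tested as the difference of the Dex effects, GR+MDFIC minus GR cells. By limma 0 of 10 KLF genes passed, where 0.0589% of all accessions were called. An unadjusted p under 0.05 was seen for 0 of 10, against 9.85% of accessions. The log2 differences ran from -0.11 for KLF13 to 0.17 for KLF15, and the lowest adjusted p was 0.68 (limma, Benjamini-Hochberg). For KLF9 the difference was -0.04, with a 95% interval from -0.24 to 0.16. A change of its rise by more than 0.24 in either direction lies outside that interval, which comes from the fit without slide. With slide as a fixed block the KLF9 difference was 0.0011 ± 0.12 (SE), against an SE of 0.09 without the block. In the fit without slide, the intervals for KLF10 and KLF11 ran from -0.39 to 0.22 and from -0.25 to 0.07. For KLF2 and KLF5 they ran from -0.15 to 0.20 and from -0.14 to 0.32. KLF15 had the widest interval above 0, up to 0.53. These values hold for the probe that stands for each gene. The other probe gave 0.20 ± 0.11 (SE) for KLF11 and -0.19 ± 0.16 for KLF2, both outside the intervals above, and 0.01 ± 0.11 for KLF5. The dimmer KLF15 probe gave -0.73 ± 0.49. The difference was not called for any of these probes.

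MDFIC itself went with small differences in level, none of which passed. In vehicle, 0 of 10 KLF genes were called between GR+MDFIC and GR cells, against 0.884% of accessions, and 4 had an unadjusted limma p under 0.05, against 17.6%. In Dex, 0 of 10 were called, against 5.54% of accessions, and 3 had an unadjusted limma p under 0.05, which is near the 24.7% of all accessions. The groups did not overlap for 4 genes in vehicle, against 22.1% of accessions, and for 5 in Dex, against 32.2%. KLF5 had the largest log2 difference in vehicle, -0.30 ± 0.07 (SE; limma, Benjamini-Hochberg adjusted p = 0.0934), and -0.21 ± 0.07 in Dex (0.106). These values are from the brighter KLF5 probe, and the other probe showed no such difference, at -0.02 and -0.01. Without GR+MDFIC vehicle replicate 3 the brighter KLF5 probe was called lower in vehicle at -0.36 (limma, Benjamini-Hochberg adjusted p = 0.0435). KLF9 was 0.18 ± 0.06 higher in vehicle and 0.14 ± 0.06 higher in Dex, and KLF2 was -0.16 ± 0.06 and -0.14 ± 0.06, all on the log2 scale and all short of the threshold (limma, Benjamini-Hochberg adjusted p from 0.154 to 0.2). The dimmer KLF2 probe gave 0.02 in vehicle and -0.17 in Dex. For KLF3 in vehicle, the brighter probe gave -0.23 and the dimmer probe 0.31. GR and GR+MDFIC cells of 1 treatment never shared a slide, but slide 2 links them, so that a fit with slide as a fixed block could estimate MDFIC apart from slide, with 6 residual degrees of freedom. In that fit 0 of 10 KLF genes were called in either comparison. Of all 23757 accessions only 71 were called in vehicle and 48 in Dex, so 0 of 10 is no result about the KLF genes. KLF5 was at -0.36 in vehicle and -0.38 in Dex in that fit (limma, Benjamini-Hochberg adjusted p = 0.443 and 0.65).

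The order of the 4 groups follows from these values. For KLF9 it was, from low to high, GR vehicle, GR+MDFIC vehicle, GR Dex and GR+MDFIC Dex, with means of -1.40, -1.22, -0.47 and -0.33 (log2). For the brighter probes of KLF2 and KLF5 the order was GR+MDFIC Dex, GR Dex, GR+MDFIC vehicle and GR vehicle. Their means in that order were -0.93, -0.79, -0.60 and -0.44 for KLF2 and 0.55, 0.76, 0.84 and 1.14 for KLF5. The other KLF2 probe did not follow it, with means of -3.61, -3.44, -3.53 and -3.55. The other KLF5 probe barely set the cells of a treatment apart, with means of -0.59, -0.58, -0.39 and -0.38. For KLF10 and KLF11 the Dex groups shared the low level and the vehicle groups the high one. Their means were -0.70 and -0.62 with Dex against -0.13 and -0.12 with vehicle for KLF10, and -1.02 and -0.96 against -0.50 and -0.47 for KLF11. In each gene, neighbours with the same treatment did not differ by a call.

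Relatives and partners of the 10 genes were taken from lists of accessions assigned to genes by hand from knowledge of RefSeq, with no table to check them against. Of 11 tested accessions of other KLF and SP factors, which bind similar GC-rich sites, 1 was called lower with Dex in GR cells, near the 7.17% of all accessions called there. In the co-transfected cells 0 were called by limma, and 4 had an unadjusted p under 0.05, near the 32% of all accessions. The one called was NM_138473, assigned to SP1, a general activator of GC-rich promoters, at -0.25 ± 0.06 (SE; limma, Benjamini-Hochberg adjusted p = 0.0362) on the log2 scale in GR cells, and -0.13 with MDFIC. With slide as a block it was -0.33 and no longer passed (limma, Benjamini-Hochberg adjusted p = 0.0658). Their median log2 folds were -0.07 and -0.09. Of 10 tested accessions of KLF co-regulators (acetyltransferases, deacetylases, SIN3A, CtBP and ubiquitin ligases), 2 were called higher in each kind of cell. Of all accessions, 4.4% were called higher without MDFIC and 6.6% with it. Both co-regulator accessions called are assigned to the same gene, CTBP2, a corepressor that KLF3 recruits. NM_001329 rose by 0.43 ± 0.07 without MDFIC and 0.46 ± 0.07 with it, and NM_022802 by 0.35 ± 0.07 and 0.52 ± 0.07 (log2 fold, SE; limma, Benjamini-Hochberg adjusted p from 0.00118 to 0.0145). Both were still called with slide as a block, at 0.58 and 0.48 for NM_001329 and 0.47 and 0.51 for NM_022802.

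Of the 7 tested accessions assigned to textbook GR targets, 7 were called higher with Dex in GR cells, against 4.4% of all accessions. With MDFIC co-expressed 6 were called higher, against 6.6%, and the median log2 folds were 0.85 and 1.0. By limma 0 of 7 passed the test of the difference between the cells, and 1 had an unadjusted p under 0.05, against 9.85% of all accessions. KLF9, at 0.93 and 0.89, lay near those medians. The 2 NM accessions whose log2 signal was most like that of KLF9 over the 12 arrays were NM_007113, with a Pearson correlation of 0.995, and NM_016725, with 0.993. They share arrays, slides and scaling with KLF9, and the correlation is a description. Their log2 folds with Dex were 1.96 and 1.77 for NM_007113, and 0.66 and 0.69 for NM_016725, in GR and GR+MDFIC cells.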

How the data were processed

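Each of the 12 arrays gave 1 file of 45015 spots, 1639 of them control spots. The deposited values are linear intensities. They were made by Feature Extraction, per the file headers (12.0.0.7 for slides 1 and 2, 12.0.3.1 for slide 3), and the submitters' processing notes name version 12. The table deposited for the series held the same intensities (largest difference 0). The other deposited values used are flags per spot.

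The log2 processed signal minus each array's 75th percentile over non-control spots was used. Outlier spots were set to missing and repeat spots of a probe averaged. The accessions tested held 34 outlier values, none of them KLF. Kept probes were well above background on all 3 arrays of a group, with at least 2 unflagged arrays in each. The brightest of the 30179 kept probes stood for its accession, and 17 of the 19 KLF probes were kept. A group-means model with 8 residual degrees of freedom was fitted to all 23757 accessions in limma 3.58.1 (R 4.3.3) and tested on simulated data. Tests were two-sided. Figures used matplotlib 3.10.9 (Python 3.11.15). Precision is limited by the 3 arrays a group.

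The KLF genes and the lists were chosen with earlier results of these data known. The rule for naming took all 10 KLF genes, called members of the 3 lists (at most 4 a list, by size), MDFIC, and the 2 NM accessions most like KLF9. GR targets are given as counts only, a departure from that rule. Their assignments could not be checked, which holds for MDFIC and the named accessions of the other lists too. The alternatives were other scaling, background correction, filters, probe rules, blocks, variance models and thresholds, the series table, and leaving out each array. Testing every probe by itself was added after the data were seen.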

Additional observations from a re-analysis of the deposited data

How the results depend on the processing

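In GR cells, 5 KLF genes were called with Dex, against 7.17% of all accessions. The count fell to 3 at an adjusted p under 0.01 (4 to 5 on leaving out 1 array). In GR+MDFIC cells, 5 were called, against 13.5% of all accessions, and 3 with slide as a fixed block, against 3.41%. With only the groups compared, where fewer arrays set the spread, 3 were called. Leaving out 1 array gave 4 to 7, the highest without GR+MDFIC vehicle replicate 3. The share of all accessions called is not given here for the stricter threshold, the groups compared alone or the arrays left out. Those counts therefore describe the settings and are no result about the KLF genes. The difference of the Dex effects gave 0 throughout, MDFIC in Dex 0 throughout, and MDFIC in vehicle 0 to 1 on leaving out 1 array. In both kinds of cell, the calls of KLF9 and KLF11 were kept under every alternative run. The other probe of KLF2 reversed its sign in GR cells, at 0.11 (limma over all probes, Benjamini-Hochberg adjusted p = 0.701; over all alternatives it ran from 0.00173 to 0.701), and the cause was not tested. With normexp and quantile scaling together, KLF2 and KLF5 gave -0.17 and -0.19 in GR+MDFIC cells, and KLF5 was not called (limma, Benjamini-Hochberg adjusted p = 0.139). Scaling moved the median log2 fold of all accessions to -0.05 at most (median scaling, Dex in GR+MDFIC cells) and turned no called KLF gene.

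The replicate numbers gave no clear pairing of the arrays. The correlations of deviations between same-numbered arrays ran from -0.108 to 0.0601, and between 0 and 4 of the 6 arrays of a comparison correlated best with their own number. The GR Dex arrays and the GR+MDFIC vehicle arrays each lay on more than 1 slide, so these correlations cannot show that pairing was absent. With the replicate block, 5 KLF genes were called with Dex without MDFIC and 6 with it, where KLF15 was added, and 0 in the other comparisons. Over all accessions that block gave 1610 and 3341 calls for Dex without and with MDFIC, against 1704 and 3217 without it. It gave 115 against 210 for MDFIC in vehicle, 1124 against 1317 for MDFIC in Dex, and 5 against 14 for the difference of the Dex effects.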

Other observations

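The accession assigned by hand to MDFIC, NM_199072, was itself lower with Dex in the cells that carried the MDFIC construct. Its log2 signal was 5.65, 5.53 and 5.86 on the GR+MDFIC vehicle arrays and 5.11, 4.88 and 5.28 on the GR+MDFIC Dex arrays, with no saturated spot. It fell by 0.59 ± 0.12 (SE) on the log2 scale (limma, Benjamini-Hochberg adjusted p = 0.0103), and by 0.76 with slide as a block. In GR cells, where it read between -3.46 and -3.18, the log2 fold was -0.08 ± 0.12, and the difference between the cells did not pass (limma, Benjamini-Hochberg adjusted p = 0.497).

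Among the 11 tested KLF and SP relatives, NM_006563, assigned to KLF1, a factor of red blood cell precursors, was the only accession called in an MDFIC comparison. It was called in Dex, where 5.54% of all accessions were called. It was 1.23 ± 0.21 (SE) higher on the log2 scale in GR+MDFIC than in GR cells with Dex (limma, Benjamini-Hochberg adjusted p = 0.0246). With slide as a block it was 0.73 and did not pass (limma, Benjamini-Hochberg adjusted p = 0.746).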
